A study of Rattus norvegicus with 6 samples.

Results

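The Slc22 family of organic ion transporters was examined in the renal cortex of rats given TBBC, the 4,4'-linked form of thiobis(6-tert-butyl-m-cresol), a phenol with a sulfur bridge that serves as an antioxidant in rubber and plastics. The members were 9 genes, Slc22a2, Slc22a4, Slc22a5, Slc22a6, Slc22a7, Slc22a8, Slc22a12, Slc22a13 and Slc22a25, taken through every non-control probe whose transcript accession mapped to one of them. They were 9 of the 12298 named genes tested, and their 18 probes all passed the filter on dim spots. All animals were male Sprague-Dawley (Crl:CD(SD)) rats obtained at 5 weeks of age. The vehicle group of 3 rats received corn oil for 4 weeks, and the TBBC group of 3 rats received TBBC at 300 mg/kg/day for 4 weeks. RNA of each rat was hybridised to 1 Agilent array labelled with Cy3. No probe of a member carried an outlier flag.

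Slc22 proteins are membrane carriers that move organic ions across the walls of the proximal tubule, the segment of the nephron that clears drugs, toxins and metabolites into urine. The organic anion transporters (Oat) on the blood side exchange an anion from plasma for a dicarboxylate held inside the cell, whereas the organic cation transporters (Oct) follow the membrane potential. The Octn proteins carry carnitine and ergothioneine, and Urat1 and Oat10 on the urine side take up urate and other anions. Renal cortex is rich in these carriers because proximal tubules make up most of its volume. As whole tissue was measured, fewer cells of a type and less RNA per cell cannot be told apart in any value below.

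On a 75th-percentile scale (log2 of the processed signal over the array's 75th percentile of non-control probes), 1 of the 9 members fell, none rose and 8 did not pass the test. The gene that fell was Slc22a25, at 1.85-fold lower in TBBC rats. In limma with Benjamini-Hochberg adjustment over 32956 transcripts, a transcript was called at an adjusted p below 0.05, which 0.531% of transcripts reached, 0.276% lower and 0.255% higher. At an unadjusted p below 0.05, 2 of the 9 members were lower, Slc22a25 and Slc22a2, and 0 were higher. Over all transcripts 20% reached that p, 10.4% lower and 9.55% higher, so the members' share was near the background. The median log2 difference (TBBC minus vehicle) over the 9 members was -0.49, beside -0.02 over all transcripts. Of the 9 members 7 lay below their vehicle mean, as did 53.5% of transcripts. In 2 members, Slc22a25 and Slc22a2, every TBBC array lay below every vehicle array, which held for 15.2% of transcripts. No member had every TBBC array above every vehicle array, which held for 13.1%, so groups without overlap in either direction made up 28.3%. Slc22a25 lies next to Slc22a8, and Slc22a8 next to Slc22a6, on chromosome 1 in the RefSeq gene order.

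The sequences just before the start of 2 genes are shown to set the gene that fell beside Slc22a24, the family gene that shares the longest run of letters with it in this window. Each is the 250 bases before the RefSeq transcript start in assembly GRCr8, written 5′ to 3′ on the gene's strand, with capitals marking the shared run. Slc22a25 lies at chr1:214862341-214862590 and Slc22a24 at chr1:214394682-214394931, both on the minus strand.
Slc22a25: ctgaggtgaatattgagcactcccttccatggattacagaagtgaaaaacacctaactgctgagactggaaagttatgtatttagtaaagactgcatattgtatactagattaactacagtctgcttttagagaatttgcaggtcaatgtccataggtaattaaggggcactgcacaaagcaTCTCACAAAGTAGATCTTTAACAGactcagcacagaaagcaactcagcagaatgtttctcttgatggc
Slc22a24: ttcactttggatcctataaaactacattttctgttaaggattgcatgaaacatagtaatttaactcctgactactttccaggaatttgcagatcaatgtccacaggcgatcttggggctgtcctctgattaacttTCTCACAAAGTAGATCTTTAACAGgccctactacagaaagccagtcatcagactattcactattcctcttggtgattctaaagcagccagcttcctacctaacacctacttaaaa

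The shared run was 24 bases long and began 68 bases before the start of Slc22a25 and 115 bases before that of Slc22a24. Of all 33469 windows of this length in the table, 2 held it. Both windows had 39.2% G and C. The HNF4 motif letters AAGTCCA, held by 3.26% of windows, were in none of the windows of the members and stood 117 bases before the start of Slc22a22. The antioxidant response element core TGACNNNGC, held by 10.1%, was found in 1 member, Slc22a4, 235 bases before its start on the reverse strand. Both strands were searched for each motif, and a match is a description of letters, not evidence of a bound factor. The table held windows for 8 of the 9 members, Slc22a6 being the exception.

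**Figure D1:**
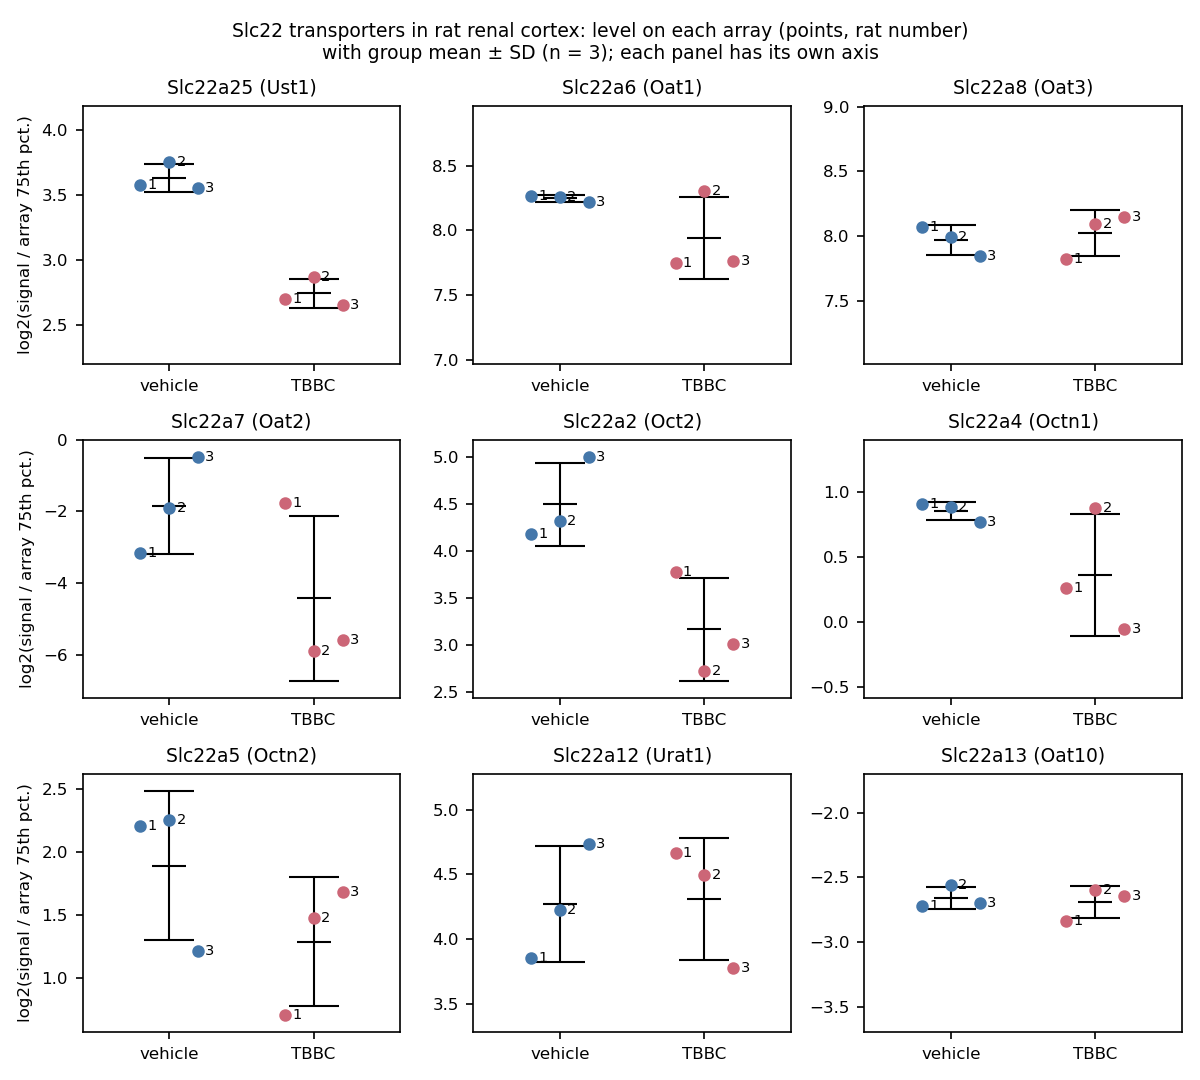
Level of each Slc22 member on each array, as log2 of the signal over the array's 75th percentile, by group; points are rats with their replicate number, and bars are the mean ± SD (n = 3). Slc22a25 has the vehicle points at 3.55 to 3.75 and the TBBC points at 2.65 to 2.87, whereas the groups overlap in 7 of the 9 panels; levels of different panels are not comparable, as each probe has its own response.

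Slc22a25 belongs to the organic anion branch, and its alias Ust1 stands for unknown substrate transporter. Its only probe read 3.58, 3.75 and 3.55 on vehicle arrays 1 to 3 and 2.70, 2.87 and 2.65 on TBBC arrays 1 to 3 (log2 level). All 3 TBBC arrays were lower than all 3 vehicle arrays, and each group stayed within a narrow band. The group means were 3.63 ± 0.11 for vehicle and 2.74 ± 0.11 for TBBC (SD, n = 3). The log2 difference was -0.89 ± 0.12 (standard error), with a 95% interval of -1.17 to -0.61 and an adjusted p of 0.0441 in limma. The 3 TBBC arrays lay -0.93, -0.76 and -0.98 from the vehicle mean, so the array that shared a slide with the vehicle arrays (TBBC 1) and those on the second slide (TBBC 2 and TBBC 3) gave like differences. All 19 alternatives kept the sign, with log2 differences from -0.95 to -0.83. The call held in 7 of them and was lost in each of the 6 fits with 1 array left out (limma, adjusted p from 0.0602 to 0.213). Fits with slide as a fixed term (0.167) or as a random block (0.0578), or with the shared slide alone (0.0940), did not call it either.

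Slc22a6 (Oat1), the classical para-aminohippurate carrier that brings anionic drugs into the proximal tubule cell from blood, did not pass. Its brightest probe read 8.27, 8.26 and 8.22 on the vehicle arrays and 7.75, 8.31 and 7.76 on the TBBC arrays. TBBC 2 was above the vehicle arrays, while TBBC 1 and TBBC 3 were below them. The log2 difference was -0.31 ± 0.17, with a 95% interval of -0.72 to 0.11 and an adjusted p of 0.378 in limma. The second probe read 4.18, 4.13 and 4.24 in vehicle and 3.68, 4.25 and 3.66 in TBBC. On it too TBBC 2 was above the vehicle arrays and TBBC 1 and TBBC 3 were below them. The vehicle SD of the brightest probe, 0.03, was smaller than that of most transcripts (5.09th percentile), and the TBBC SD was 0.32.

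Slc22a8 (Oat3), which takes up larger anions, steroid conjugates and some drugs on the blood side, had nearly equal group means. The probe read 8.07, 7.995 and 7.84 in vehicle and 7.82, 8.10 and 8.15 in TBBC. The TBBC arrays lay on both sides of the vehicle range. The log2 difference was 0.05 ± 0.13, with a 95% interval of -0.27 to 0.37 and an adjusted p of 0.864 in limma. The second probe differed by 0.08 ± 0.13. The sign of the small difference turned under 6 alternatives, quantile scaling (-0.07) among them.

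Slc22a7 (Oat2), a carrier of anions and cyclic nucleotides, had the largest log2 difference among the members and also the widest spread. Its single probe read -3.15, -1.90 and -0.49 on the vehicle arrays and -1.77, -5.88 and -5.59 on the TBBC arrays. TBBC 1 lay inside the vehicle range and the other TBBC arrays lay below it, with TBBC 2 not well above background. The means were -1.85 ± 1.33 in vehicle and -4.41 ± 2.29 in TBBC, SDs at the 99.5th and 99.9th percentiles of all transcripts in their groups. The log2 difference of -2.57 ± 1.22 had a 95% interval of -5.53 to 0.39 and an adjusted p of 0.306 in limma. Within the slide that held both groups the difference was 0.07, and without TBBC 1 it was -3.89. With normexp background correction and quantile scaling it was -1.30, beside -1.29 for Slc22a2. The size of this difference, and its rank among the members, thus depend on the processing. For this gene the low arrays and the second slide are the same arrays, so slide and animal cannot be told apart.

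Slc22a2 (Oct2), the main entry route for organic cations such as metformin and cisplatin into the proximal tubule, was lower on all TBBC arrays but did not pass the test. The brightest probe read 4.17, 4.31 and 4.99 in vehicle and 3.77, 2.72 and 3.01 in TBBC. The groups did not overlap, with TBBC 1 nearest to the vehicle arrays. The means were 4.49 ± 0.44 and 3.17 ± 0.55 (SD, n = 3), a 2.51-fold difference, and the log2 difference was -1.33 ± 0.33 with a 95% interval of -2.14 to -0.52 and an adjusted p of 0.119 in limma. At least a 2-fold lower level was seen in 2.18% of transcripts. The second probe gave the same picture. It read 1.73, 1.61 and 2.51 in vehicle and 1.11, 0.28 and 0.71 in TBBC, a log2 difference of -1.25 ± 0.31 (limma over 41992 probes, adjusted p = 0.114). Over the alternatives the log2 difference ranged from -1.63 to -0.72 and the adjusted p from 0.0772 to 0.456. The smallest difference, -0.72, came from the fits with a fixed slide term and from the shared slide alone, where it rests on TBBC 1.

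**Figure D2:**
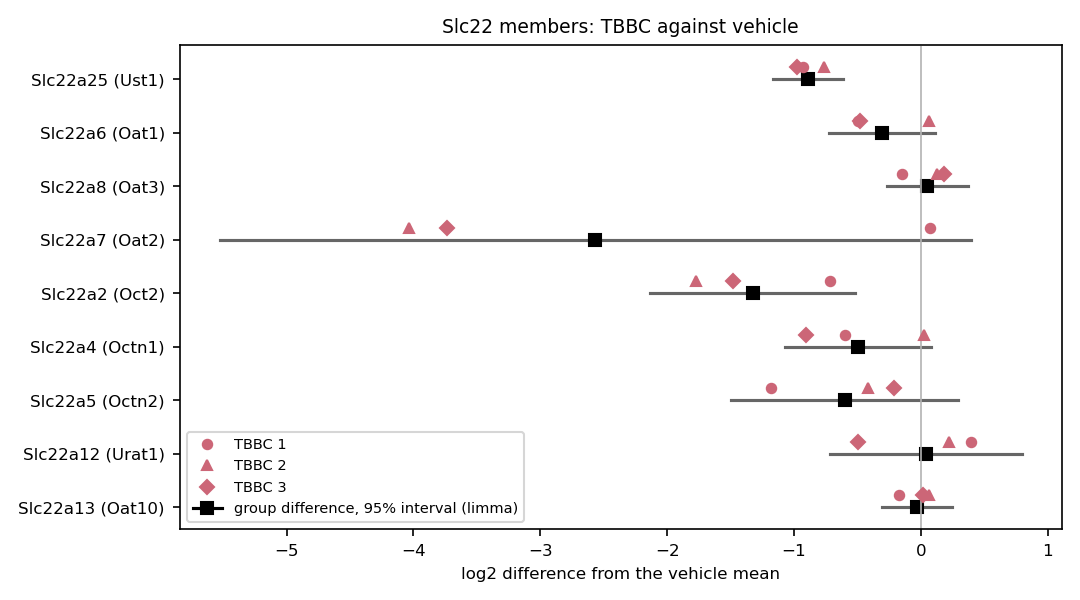
Log2 difference of the TBBC group from the vehicle mean for each Slc22 member, with black squares for the group difference, lines for its 95% interval from limma and coloured symbols for the 3 TBBC arrays. The intervals of Slc22a25 (-1.17 to -0.61) and Slc22a2 (-2.14 to -0.52) do not reach 0, and in Slc22a7 TBBC 1 stands at 0.07 while the other arrays stand near -4.04 and -3.74.

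Slc22a4 (Octn1), a carrier of ergothioneine, differed on some TBBC arrays and not on others. Its brightest probe read 0.91, 0.88 and 0.78 in vehicle and 0.26, 0.88 and -0.05 in TBBC. TBBC 2 matched the vehicle arrays and the other TBBC arrays were lower. The log2 difference was -0.49 ± 0.24 (95% interval -1.07 to 0.08, limma adjusted p = 0.311). The second probe differed by -0.08 ± 0.21, with TBBC 2 again the highest TBBC array.

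Slc22a5 (Octn2), the sodium-coupled carrier that recovers carnitine from the filtrate, was read by probes of unlike spread. The brightest probe read 2.20, 2.25 and 1.21 in vehicle and 0.71, 1.47 and 1.68 in TBBC, and the groups overlapped through vehicle 3. Its log2 difference was -0.60 ± 0.37 (95% interval -1.50 to 0.29, limma adjusted p = 0.417). The other probe read 0.56, 0.58 and 0.62 in vehicle and 0.12, -0.34 and -0.13 in TBBC. On it every TBBC array was below every vehicle array. Its log2 difference was -0.70 ± 0.14 (95% interval -1.04 to -0.37), and its adjusted p in limma over all probes was 0.0828, where 0.793% of probes were called. That probe passed in limma under 2 alternatives, normexp background correction with quantile scaling (0.0468) and eBayes with trend and robust settings (0.0448).

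Slc22a12 (Urat1), the urate exchanger of the urine-side membrane, showed no separation of the groups. The brightest of its 3 probes read 3.85, 4.22 and 4.74 in vehicle and 4.66, 4.49 and 3.77 in TBBC. Both groups spanned nearly the same range. The log2 difference was 0.04 ± 0.31, and its 95% interval of -0.72 to 0.80 leaves room for a change in either direction (limma adjusted p = 0.961). The other probes differed by -0.02 ± 0.32 and -0.03 ± 0.32, so the sign depends on the probe.

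Slc22a13 (Oat10), an exchanger of urate and nicotinate, was dim, and its 3 probes did not give the same difference. The brightest probe read -2.72, -2.56 and -2.70 in vehicle and -2.83, -2.60 and -2.65 in TBBC, with overlapping groups and a log2 difference of -0.03 ± 0.11 (95% interval -0.31 to 0.25, limma adjusted p = 0.911). A second probe differed by -0.50 ± 0.32, also with overlap. The third was well above background on all 3 vehicle arrays, at -4.23, -4.66 and -4.02, and on no TBBC array. With the TBBC level taken as a bound, that probe was at least 2.83-fold lower in TBBC. The bound on each array was the probe's own signal or the lowest one that counted as well above background, whichever was higher. This probe passed the filter on dim spots through the vehicle arrays alone, so no p is given for it. With the mean of the 3 probes in place of the brightest, the log2 difference of Slc22a13 was -0.85, a value that includes the background signal of that dim probe in TBBC.

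**Figure D3:**
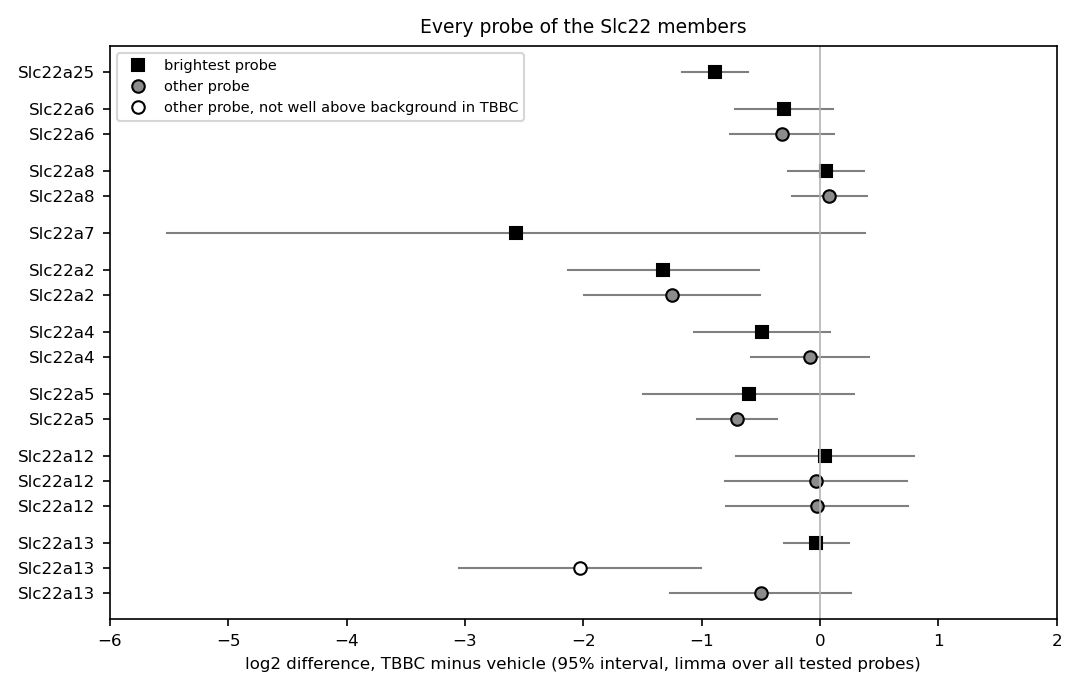
Log2 difference (TBBC minus vehicle) with its 95% interval for all 18 probes of the Slc22 members, from limma over all tested probes; squares mark the brightest probe of a gene and the open circle a probe not well above background in any TBBC rat. Probes of Slc22a2, Slc22a6, Slc22a8 and Slc22a12 lie close together, while the open circle of Slc22a13 lies apart from its other probes, at a value set by background signal in TBBC and so only a bound.

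Across the arrays, the members' median difference from the vehicle mean was -0.50 on TBBC 1, 0.02 on TBBC 2 and -0.50 on TBBC 3. TBBC 2 was above the vehicle mean for Slc22a6, Slc22a8, Slc22a4, Slc22a12 and Slc22a13 and was the lowest TBBC array for Slc22a2 and Slc22a7. Vehicle rats differed from each other as well. Of 16 tested Slc22 genes (members and others), vehicle 3 was the highest and vehicle 1 the lowest vehicle array for 5, namely Slc22a2, Slc22a7, Slc22a12, Slc22a22 and Slc22a24, beside 17% of transcripts. The order of these arrays was the opposite for 6, beside 18.4% of transcripts. These orders were looked at after the values were seen.

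The other Slc22 genes were described from a list of 15, of which 9 were on the array and 7 passed the filter. None was called in limma, and at an unadjusted p below 0.05 2 of the 7 were lower and 0 higher, beside 10.4% and 9.55% of transcripts. Their median log2 difference was -0.35, and 5 of the 7 lay below the vehicle mean, as did 53.5% of transcripts. In 2 of the 7 the TBBC arrays were all lower than the vehicle arrays, which held for 15.2% of transcripts. Slc22a17, the receptor for the iron carrier lipocalin 2, read 3.35, 3.22 and 3.33 in vehicle and 2.71, 2.55 and 2.70 in TBBC, a log2 difference of -0.65 ± 0.11 (limma adjusted p = 0.0641). Its groups did not overlap, and it passed in limma under normexp correction with quantile scaling (0.0402) and eBayes with trend and robust settings (0.0244). Slc22a22, a prostaglandin carrier of the proximal tubule, read 2.53, 3.09 and 3.41 in vehicle and 2.02, 1.11 and -0.69 in TBBC (log2 difference -2.20 ± 0.67, limma adjusted p = 0.159). Slc22a24, a carrier of steroid conjugates, read 0.01, 0.87 and 2.88 in vehicle and 0.55, -0.94 and -1.73 in TBBC, with overlap through TBBC 1 (-1.96 ± 0.87, limma adjusted p = 0.280). Slc22a23, Slc22a18 and Slc22a15 differed by -0.18, 0.01 and 0.05. Slc22a3 and Slc22a14 were not well above background on any array. Ust5r, which lies next to Slc22a25, differed by -0.40 ± 0.28 with overlapping groups, and UST4r was well above background on 1 of the 6 arrays.

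Genes that work with these carriers were taken in lists by role. Counter-ion supply (7 genes: dicarboxylate and sulfate carriers, sodium-proton exchange and the sodium pump) had 0 calls in limma, with 0 genes below an unadjusted p of 0.05, and a median log2 difference of -0.17. Slc13a3, which loads the cell with the dicarboxylates that Oat1 and Oat3 exchange, read 8.68, 8.73 and 8.66 in vehicle and 8.11, 8.80 and 8.17 in TBBC (-0.33 ± 0.20, limma adjusted p = 0.405). TBBC 2 was again at the vehicle level and the other TBBC arrays were lower. Fxyd2, the regulatory subunit of the sodium pump, differed by -0.26 (adjusted p = 0.298 in limma), and the sulfate carrier Slc26a1 by -0.53 (0.470).

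The apical exit list, named for the step from the cell into urine, had 2 genes that rose and 0 that fell among 11 tested. Over all transcripts 0.255% were called higher and 0.276% lower. The list's median log2 difference was 1.31. At an unadjusted p below 0.05, 6 were higher and 5 lower, beside 9.55% and 10.4% of transcripts. Slc17a1, a phosphate and urate carrier, read 1.62, 1.40 and 1.67 in vehicle and 3.51, 3.10 and 3.19 in TBBC (1.70 ± 0.15, limma adjusted p = 0.0181). The export pump Abcc4 read 2.25, 2.10 and 2.18 in vehicle and 4.52, 4.61 and 3.75 in TBBC (2.12 ± 0.24, limma adjusted p = 0.0343). In both genes every TBBC array was above every vehicle array. The list ran from -4.18 to 3.53, so as a whole it did not move one way. It also held the uptake and exchange carriers Slco1a1, Slco1a6 and Slco4c1. They were among the 5 lower genes and had the lowest log2 differences of the list, so its counts are not about exit alone. Without vehicle 1, 2 or 3 no gene of the list was called, without TBBC 1 or TBBC 2 the number was 1, and without TBBC 3 it was 6. Urate handling (7 tested) had 1 gene that rose, the same Slc17a1, beside 0.255% of transcripts, and a median of 0.28. That call was also lost without any 1 of the vehicle arrays.

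The carnitine pathway (8 tested) had 0 calls in limma and a median log2 difference of -0.24, with 2 genes lower and 1 higher at an unadjusted p below 0.05, which 20% of transcripts reached. Cpt2, which reforms acyl-CoA inside mitochondria, differed by 0.34 ± 0.11 with all TBBC arrays higher (limma adjusted p = 0.167). Crat, the carnitine acetyltransferase, differed by -0.33 (0.170) and Cpt1b by -0.46 (0.206), both with all TBBC arrays lower. Scaffolds and regulators (12 tested) had 0 calls in limma and a median of -0.27, with 4 genes lower and 0 higher at an unadjusted p below 0.05, beside 10.4% and 9.55% of transcripts. In 5 of the 12 every TBBC array was below every vehicle array, beside 15.2% of transcripts. Pdzk1, the PDZ protein that anchors Urat1 and other carriers in the brush border, read 6.54, 6.50 and 6.37 in vehicle and 5.85, 5.76 and 5.94 in TBBC (-0.62 ± 0.11, limma adjusted p = 0.0696). Hnf4a, a transcription factor of proximal tubule carriers, read 3.78, 3.70 and 3.96 in vehicle and 3.25, 3.31 and 3.17 in TBBC (-0.57 ± 0.11, limma adjusted p = 0.0845).

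**Figure D4:**
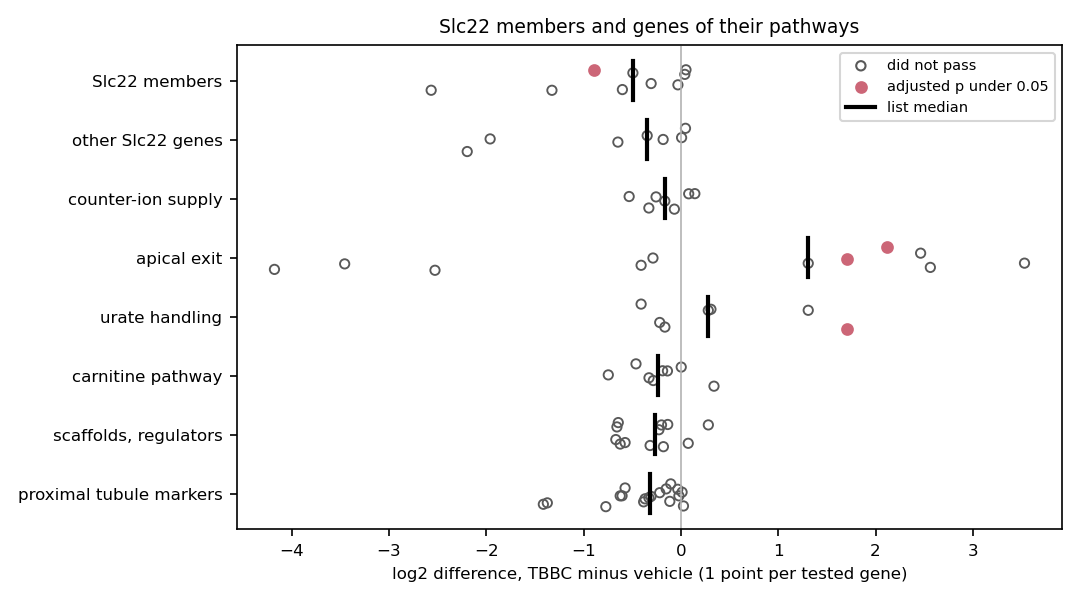
Log2 difference (TBBC minus vehicle) of each tested gene, 1 point per gene, for the Slc22 members, the other Slc22 genes, the lists of genes that work with them and the proximal tubule markers; filled points passed the adjusted p of 0.05 and bars are list medians. The Slc22 members have a median of -0.49 with 1 filled point, close to the other Slc22 genes at -0.35 and the proximal tubule markers at -0.32. The apical exit list, which includes uptake and exchange carriers, spreads to both sides.

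All 18 proximal tubule markers passed the filter on dim spots, as did 6 of 6 podocyte and 6 of 6 thick limb markers, so the main cell types of renal cortex were detected. None of the proximal tubule markers was called in limma, with 6 lower and 0 higher at an unadjusted p below 0.05, beside 10.4% and 9.55% of transcripts. Their median difference from the vehicle mean was -0.32, -0.31 and -0.20 on TBBC arrays 1 to 3 and lay between -0.02 and 0.00 on the vehicle arrays. For the 8 markers of the last (S3) part of the proximal tubule it was -0.34, -0.63 and -0.67 in TBBC. On vehicle arrays 1 to 3 it was -0.18, -0.21 and 0.23, and none of the 8 was called in limma. Of these S3 markers 6 lay below their vehicle mean, as did 53.5% of transcripts. The 6 thick limb markers, none of them called in limma, were all below the vehicle mean, as were 53.5% of transcripts. In 4 of them every TBBC array was below every vehicle array, beside 15.2% of transcripts. At an unadjusted p below 0.05 in limma, 3 were lower and 0 higher, beside 10.4% and 9.55% of transcripts. The thick limb medians were -0.23, -1.29 and -0.73 on TBBC arrays 1 to 3. Median log2 differences of the lists were -0.32 for intercalated cells, -0.26 for podocytes, -0.19 for principal cells, -0.16 for endothelium and 0.26 for the distal convoluted tubule. Markers of fibroblasts (0.02, -0.59 and 0.82), myeloid cells (-0.08, -0.19 and 0.83) and lymphocytes (-0.20, -0.79 and 0.64) were highest on TBBC 3 and lowest on TBBC 2. Among tubular injury genes 2 of 9 were called higher in limma, Spp1 and Havcr1, beside 0.255% of transcripts. The median difference of the injury list was 0.64, 2.59 and 2.13 on TBBC arrays 1 to 3. The part of these markers in the Slc22 values was not tested.

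The level of Slc22a25 over the 6 arrays was most like that of 5 genes among 12297, by Pearson correlation, given as a description. They were Adck1 (0.996), Spag9 (0.996), Nek2 (0.991), Atp5f1b (0.990) and Ces2e (0.990). All of them were lower in TBBC, by 0.32 to 0.76 on the log2 scale, and none was called (limma adjusted p from 0.0571 to 0.151). The 6 points share the split into groups.

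**Figure D5:**
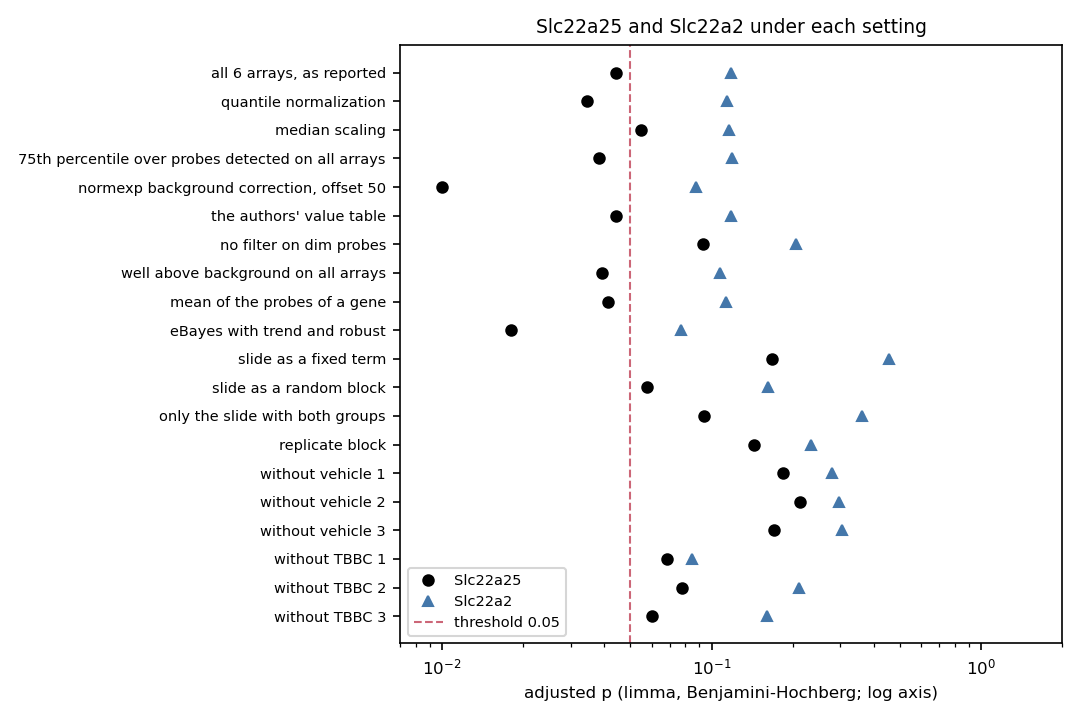
Adjusted p in limma (log axis) of Slc22a25 and Slc22a2 under each way of scaling, filtering, fitting or leaving out an array, with the threshold of 0.05 as a dashed line. Slc22a25 lies left of the line in the reported fit (0.0441) and in 7 alternatives, and Slc22a2 lies right of it throughout (0.0772 to 0.456).

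Facts of the arrays bear on all of these values. Of 61537 non-control probes, 67.1% to 70.9% were well above background on each array, and the number of arrays limits the precision. Slide 1 (scan 1) held the vehicle arrays and TBBC 1, and slide 2 (scan 2) held TBBC 2 and TBBC 3, so slide and treatment were partly joined. Over all transcripts the median SD was 0.13 in vehicle and 0.23 in TBBC, and the TBBC SD was the larger for 74.3%. The whole comparison called 175 transcripts (84 higher, 91 lower) of 32956.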

How the data were processed

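Renal cortex of 3 vehicle and 3 TBBC rats was measured on 1-colour Agilent arrays. Groups and replicate numbers came from the sample titles, and replicates are biological per the series' design text. Spot intensity values in the scanner files were deposited as Feature Extraction 10.7.1.1 wrote them, per the file headers (version 10.7 in the submitters' processing notes): background-subtracted within an array, with no scaling across arrays. The value table that the authors deposited is a linear ratio; compared with the scanner values, it was the processed signal divided by nearly the 75th percentile of the array. The authors' statistics are not given in the sources used here.

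Accessions, stripped of versions, were looked up in RefSeq genes of GRCr8, so that 28206 of 61537 probes had a name and 33331 had none. The file headers name another build, so no probe positions are given; promoter sequences and positions are RefSeq's in GRCr8. Each signal was scaled to its array's 75th percentile and then log2-transformed. Tested probes were well above background on all unflagged arrays of 1 group or both, with 2 or more unflagged arrays in each. The brightest tested probe represented a gene, and unnamed probes represented themselves. Groups were compared with limma 3.58.1 (lmFit, eBayes, two-sided, Benjamini-Hochberg) in R 4.3.3, and a second fit ran over all probes. Whether a probe also binds close relatives in the family was not tested.

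The members, the 6 pathway lists (the other Slc22 genes among them) and the 11 marker lists were chosen with earlier results of these data known. All members and their probes are named, with the called genes of each pathway list or else at most the 3 with the smallest p, the called marker genes and the 5 genes most like the member with the smallest p. Slc22a23, Slc22a18, Slc22a15, Slc22a3, Slc22a14, Ust5r and UST4r were named after their values were seen. Some results of these lists and 1 of the motifs searched are not reported here. The design set limma on these arrays with no covariate. Alternatives were other scalings, normexp background correction, the authors' table, filters, probe combining, eBayes settings, slide (statmod 1.5.0), the replicate number and each array left out. Normexp was run on the median signal, as the files have no mean signal, with an offset of 50. Quantile scaling followed it, so every result given for normexp differs from the main fit in both steps. Simulated data for this comparison held 32956 transcripts, with independent normal values, the same SD in both groups and no slide effect. Of 50 changes of each size, 28 of 2-fold, 41 of 4-fold, 45 of 8-fold and 48 of 16-fold were recovered, with 7 false calls. In the real arrays the TBBC SD was mostly the larger and slide was partly joined with treatment, so these rates need not hold there.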

Additional observations from a re-analysis of the deposited data

How the results depend on the processing

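The direction of Slc22a25, Slc22a2, Slc22a4, Slc22a5 and Slc22a6 was kept in all alternatives run. Of single-gene values under an alternative, 442 kept sign and side of the threshold, 24 lost a call, 9 gained one and 14 turned sign. The number of Slc22 members called was 0 with median scaling, with no filter on dim probes, with slide as a fixed term, as a random block or only the slide with both groups, with the replicate block, and with any array left out (0 to 0); Slc22a25 had limma adjusted p of 0.0548, 0.0931, 0.167, 0.0578, 0.0940 and 0.143 in the first 6 of these. The number of transcripts called was 642 with normexp, 52 with no filter, 333 with every probe by itself, 1087 with trend and robust, 48 with slide as a fixed term, 307 with only the slide with both groups, 0 with the replicate block (5366 at an unadjusted p below 0.05), and 6 (without vehicle 2) to 274 (without TBBC 3) with 1 array left out. Vehicle 1 and vehicle 3 left 10 and 14, and TBBC 2 left 58. Replicate numbers did not pair the arrays: correlations of same-numbered deviations were -0.09, 0.03 and -0.07, and not every array was most like its own number. Other Slc22 genes had 1 call with normexp and 1 with trend and robust. Apical exit had 4 with normexp, 4 with trend and robust, 1 with no filter, 1 with slide as a fixed term, 5 with only the slide with both groups, 0 with the replicate block and 0 to 6 with an array left out. Urate handling had 2 with normexp, 2 with trend and robust, 0 with the replicate block and 0 to 2 with an array left out. Scaffolds and regulators had 3 with normexp and 2 with trend and robust. Log2 differences that turned sign were those of Slc22a7 (0.0739 with slide as a fixed term and 0.0739 with only the slide with both groups), Slc22a8 (-0.0731 with quantile, -0.0869 with normexp, -0.150 with slide as a fixed term, -0.150 with only the slide with both groups, and -0.011 to 0.153 with an array left out), Slc22a12 (-0.0049 with the mean of probes and -0.17 to 0.308 with an array left out) and Slc22a13 (-0.0795 to 0.0401 with an array left out). The cause was not tested. Slc22a7 has no value with the filter for all arrays, as 1 array was not well above background, and signal near background limits Slc22a7 and Slc22a13.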

Other observations

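Among the genes of the apical exit list, the uptake and exchange carriers Slco1a1, Slco1a6 and Slco4c1 had the lowest log2 differences, and they were picked after their values were seen. Slco1a1, an organic anion transporting polypeptide, read 0.56, 1.05 and 2.62 in vehicle and 0.68, -3.44 and -5.54 in TBBC. Slco1a6 read -0.55, 0.13 and 1.71 in vehicle and -0.44, -3.67 and -4.96 in TBBC. In both genes TBBC 1 lay within the vehicle range, the other TBBC arrays lay below it, and vehicle 3 was the highest array, the order also seen in Slc22a7. Their log2 differences of -4.18 ± 1.54 and -3.46 ± 1.20 did not pass (limma adjusted p = 0.209 and 0.192). Slco4c1, a carrier of uremic toxins, read -4.71, -3.64 and -2.65 in vehicle and -5.51, -7.05 and -6.03 in TBBC. It was well above background on 1 of the 3 TBBC arrays, so its TBBC level and log2 difference (-2.53 ± 0.60, adjusted p = 0.109 in limma) rest in part on background signal.

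The export pumps Abcc2, Abcb1b and Abcb1a, picked the same way, were higher on every TBBC array without passing; Abcb1a was well above background on 1 of the 3 vehicle arrays. Abcc2 read 2.05, 1.76 and 1.89 in vehicle and 6.36, 5.86 and 4.07 in TBBC (log2 difference 3.53 ± 0.57, limma adjusted p = 0.0622). Abcb1b read -1.11, -1.09 and -1.14 in vehicle and 2.65, 1.38 and 0.32 in TBBC (2.56 ± 0.55, limma adjusted p = 0.0924). TBBC 1 was the highest and TBBC 3 the lowest TBBC array for both of these pumps. Abcg2, another export pump of the list, went the other way, with every TBBC array below every vehicle array. It read 3.76, 3.52 and 3.58 in vehicle and 3.22, 3.03 and 3.38 in TBBC (-0.41 ± 0.13, limma adjusted p = 0.176). The level of the cation exporter Slc47a1 (Mate1), which passes on what Oct2 takes up, was 3.95, 3.90 and 3.83 in vehicle and 3.55, 3.57 and 3.69 in TBBC (-0.29 ± 0.10, limma adjusted p = 0.194), again with no overlap.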
